A study of Mus musculus with 6 samples.

Results

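Cytochrome P450 enzymes of families 1 to 3 were followed in the livers of ethanol-fed mice with and without Cd44. The members are the protein-coding genes of the count table whose symbol is Cyp followed by 1, 2 or 3 and a letter, with Cyp2e1 left out. The rule gave 60 genes in 16 subfamilies, of 54682 rows and 21995 protein-coding genes in the table. Poly(A) RNA was sequenced from 3 wild-type livers and 3 livers of Cd44-/- mice (B6.Cg-Cd44tm1Hbg/J, a germline targeted allele carried by every cell), with 1 library for each mouse. All 6 mice, wild-type ones included, drank a Lieber-DeCarli liquid diet with ethanol at 5% by volume during 10 days, were gavaged with ethanol at 5 g/kg on day 11 and were killed 9 hours afterwards. Mice without ethanol were not analysed here, and the labels give neither age nor sex. The values of a member are therefore read as knockout against wild-type in the ethanol-exposed liver, and not as an effect of ethanol.

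P450 enzymes are heme proteins of the endoplasmic reticulum that insert an oxygen atom into lipophilic molecules, with electrons passed on by P450 reductase (Por). Families 1 to 3 hold the main enzymes of drug, pollutant and steroid clearance, and in liver they are made by hepatocytes, most of them strongest around the central vein. The aryl hydrocarbon receptor (Ahr) drives family 1, the constitutive androstane receptor (Nr1i3) is best known for Cyp2b10, and the pregnane X receptor (Nr1i2) for Cyp3a11. In the mouse many members of subfamilies 2a, 2b, 2c and 3a are set by the sex-specific rhythm of growth hormone, and Cyp2b9, Cyp2b13, Cyp3a41a, Cyp3a41b and Cyp3a44 are known as female-predominant genes.

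The members share a signature where the heme is held. A search of the longest annotated coding sequence of each member for 10 codons in a row that spell phenylalanine, any 2, glycine, any 1, arginine, any 1, cysteine, any 1 and glycine, the P450 signature around the cysteine that binds the heme iron, found it in 57 of 60. It was not found in the coding sequence used for Cyp2b10, Cyp2s1 and Cyp3a59, and another annotated transcript of Cyp2b10 holds it. These 30 coding bases show how closely the members are related and where the subfamilies part. They are read from the GRCm38 annotation, 5′ to 3′, with the cysteine codon in capitals, and each span runs from the first to the last base on the genome:
Cyp1a2, chr9:57677396-57677425, minus strand, exon 7: ttcggcttgggaaagcgccggTGCattggg
Cyp2a4, chr7:26313687-26314722, plus strand, exons 8 and 9: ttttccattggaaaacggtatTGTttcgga
Cyp2a5, chr7:26841860-26842897, plus strand, exons 8 and 9: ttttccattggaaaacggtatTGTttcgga
Cyp2b9, chr7:26201223-26210122, plus strand, exons 8 and 9: ttctccacaggaaagcgcattTGTcttggt
Cyp2c29, chr19:39329236-39330271, plus strand, exons 8 and 9: ttttcaacaggaaaacggattTGTgctgga
Cyp2d26, chr15:82790336-82790465, minus strand, exons 8 and 9: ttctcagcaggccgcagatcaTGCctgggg
Cyp2j5, chr4:96629627-96630720, minus strand, exons 8 and 9: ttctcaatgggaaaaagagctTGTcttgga
Cyp3a11, chr5:145858805-145858834, minus strand, exon 12: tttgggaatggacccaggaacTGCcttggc
Cyp3a41a, chr5:145698221-145698250, minus strand, exon 12: tttggaattggacccaggaacTGCattggc
Cyp2a4 and Cyp2a5 had the same 30 bases, as had Cyp2b9 and Cyp2b13, and Cyp3a44 and Cyp3a41a. Cyp3a41a and Cyp3a11 differed at 3 bases, and Cyp2b9 and Cyp3a11 at 15. An intron split the signature in 46 of 46 family 2 members that have it, in 0 of 8 of family 3 and in 0 of 3 of family 1.

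The likeness bears on the counts. The share of a gene's exonic words of 50 bases that also occur in another gene was 98.6% for Cyp3a41a and 93.5% for Cyp3a41b, which are near copies of each other. It was 60.3% for Cyp2c40, 54.3% for Cyp2c69, 52.8% for Cyp2c67, 38.8% for Cyp2a4 and 37% for Cyp2a5. For Cyp2b9 it was 11.2%, for Cyp2b10 8.7%, for Cyp3a11 6.73%, and for Cyp3a13, Cyp2c70, Cyp2c23 and Cyp2j9 0. How reads that map to several genes were counted is not given in the sources used here, so single values of near copies are uncertain, and sums are given for the groups of closest copies named below.

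Libraries held 15429784 to 19293777 counts on named genes, and the members took 1.29% to 2.61% of them. Cd44 had 590, 175 and 568 counts in wild-type mice 1, 2 and 3 and 1, 0 and 0 in knockout mice 1, 2 and 3 (edgeR quasi-likelihood adjusted p = 0.00647; 0.331, 0.0977 and 0.158 without knockout 1, 2 and 3), so no library went against its label. Xist was read at 443 to 759 CPM in all 6 livers. The 4 Y-linked genes Ddx3y, Eif2s3y, Kdm5d and Uty had 0 counts in each of them, which allows up to 0.15 to 0.206 CPM. All 6 livers, of both genotypes, thus had the transcript pattern of females. Levels are CPM, counts relative to the TMM-scaled library total, and levels of different genes are compared only as RPKM, CPM per kilobase of exon. Hepatocyte markers (7 of 8 named genes had a row) summed to 94895 to 128571 CPM in every liver, while epithelial markers of gut and lung (Vil1, Cdx2, Scgb1a1 and Sftpc), where several members are also made, summed to 0.131 to 0.411 CPM.

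Wild-type mouse 3 stood apart from the other 5 livers in these genes. It was the lowest mouse for 26 of the 44 members with enough counts to be tested, against 23.8% of all 14145 tested genes. In 11 of the 26 the next mouse was over 3 times higher, which held for 1 member in any other mouse (Cyp1b1, lowest in wild-type 1). The median deviation of the members from their mean over 6 mice, on the log2(CPM + 1) scale, was −0.75 in wild-type 3 and lay between 0.01 and 0.36 in the other 5. The same library had the lowest sum of 10 pericentral hepatocyte genes (2330 CPM, against 3501 to 7200 in the others), the highest sum of 10 periportal genes (13069 against 8273 to 10787) and the highest sum of 12 acute-phase genes (19291 against 10861 to 16293), with Lcn2 at 1528 CPM against 61.6 to 189. The part of these differences in the P450 levels was not tested. This mouse was picked out after its values were seen, and values without it are given beside many results. Wild-type 2 was at the other end, the highest mouse for 16 of the 44 members, against 17.5% of all tested genes. The log2 ratio of the summed level of all members, 0.14 with 6 mice, was 0.47 without wild-type 2 and −0.12 without wild-type 3.

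**Figure D1:**
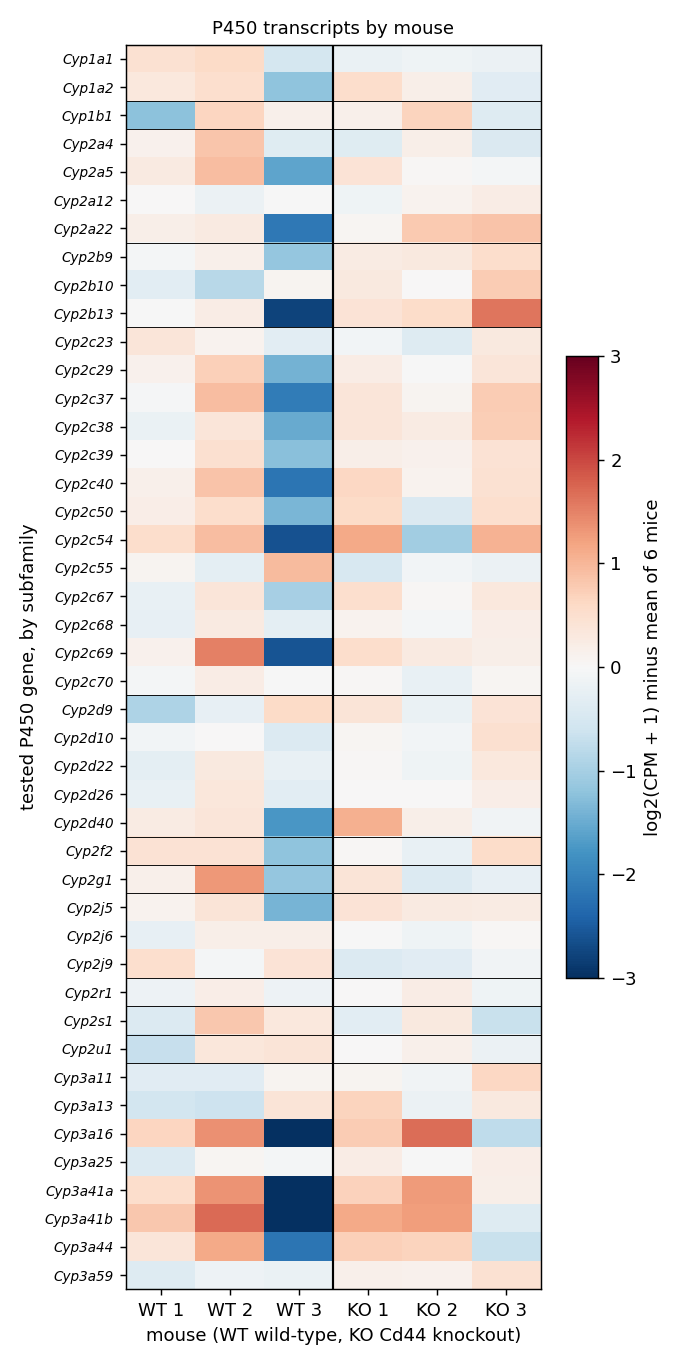
Level of the 44 tested members (rows, by subfamily) in each mouse (columns), as log2(CPM + 1) minus the mean of the 6 mice; red is above and blue below that mean, and the colour scale ends at 3 in both directions. Wild-type 3 is blue in most rows of subfamily 2c, with the deepest blue in Cyp3a16, Cyp3a41a and Cyp3a41b, while Cyp3a11, Cyp3a13, Cyp2b10 and Cyp2c55 are not low there.

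Few genes made most of the P450 message. Per kilobase, Cyp2a5 (mean of 6 mice 1475 RPKM) and Cyp2a4 (1429.8 RPKM), coumarin and steroid hydroxylases, and Cyp2c29 (958 RPKM), an arachidonate epoxygenase, stood highest. Cyp2d26 (539), Cyp2c37 (444), Cyp1a2 (401), Cyp2d10 (389), Cyp2b10 (318), Cyp2a12 (304) and Cyp3a11 (298 RPKM) followed. This order depends on the merged exon length, which was 5093 bases for Cyp3a11 and 3457 for Cyp2a12, against 2073 for Cyp2a5. The spread between mice was wider than most steps in this order: the coefficient of variation of Cyp2a5 was 68.4% in wild-type and 17.8% in knockout livers, and that of Cyp2c37 80.7% and 24.7%. Without wild-type 3 the wild-type values were 31.2% and 45.3%, from 2 mice. Of the summed CPM of all members, a share that is not corrected for length, Cyp2a5 gave 14.1%, Cyp2c29 13.6%, Cyp2a4 12.2% and Cyp3a11 7.88%, and the 10 highest genes together 72.8%. At the other end Cyp1b1, Cyp1a1, Cyp2u1 and Cyp2s1 lay between 0.211 and 0.558 RPKM.

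**Figure D2:**
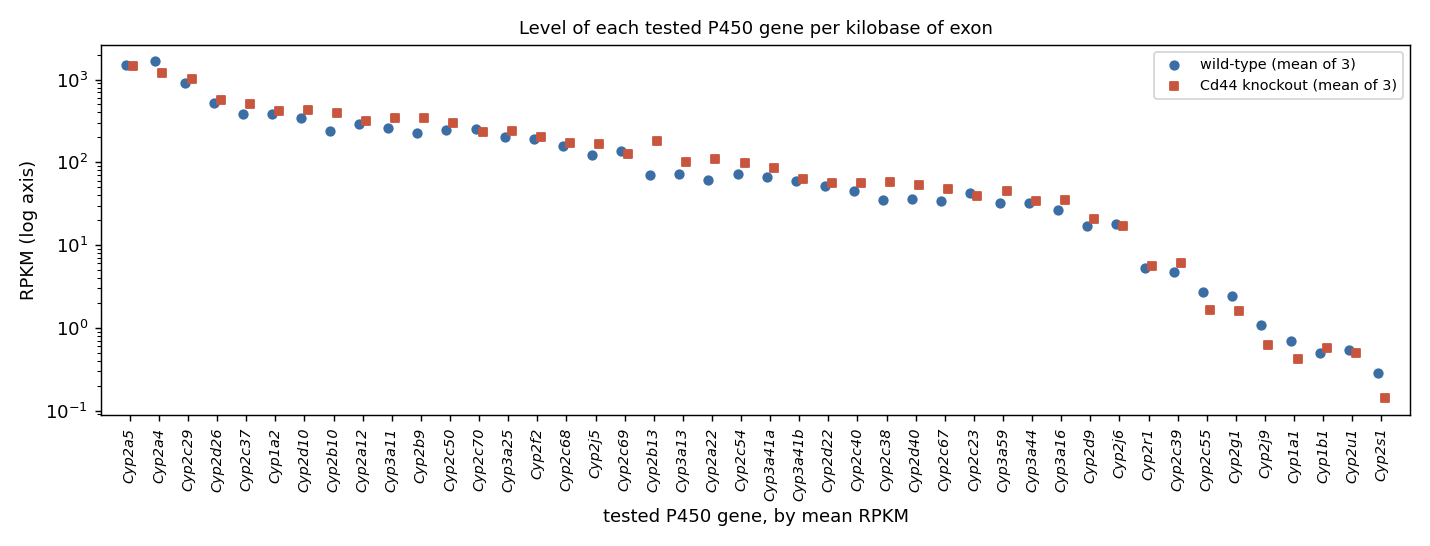
Mean level of each tested member in wild-type (blue circles, mean of 3) and Cd44 knockout livers (red squares, mean of 3), in RPKM on a log axis, ordered by the mean of all mice. Cyp2a5, Cyp2a4 and Cyp2c29 lead at 958 to 1475 RPKM and Cyp2s1 closes at 0.211 RPKM, and the symbols of both genotypes lie close together for most genes.

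The first question was whether the livers differed in these genes by genotype. None of the 44 tested members passed an adjusted p of 0.05 in edgeR's quasi-likelihood test, where 0.0141% of all tested genes did. None passed in DESeq2, where 2.03% did, and none in limma-voom, where 0 genes did. An unadjusted p under 0.05 in edgeR was reached by 3 members, Cyp2b10 and Cyp3a59 higher and Cyp2j9 lower in the knockout. Of all tested genes 12.8% reached it (5.22% higher, 7.59% lower). In DESeq2 it was reached by 5 of the 53 members with a p, and by 1832 genes in all. The smallest adjusted p of a member was 0.222, for Cyp3a59. The fold change was above 0 for 32 of 44 members (48.9% of all tested genes), with a median of 0.20 on the log2 scale against −0.01 for all tested genes. It was above 0 for 913 of 1530 tested protein-coding genes at 100 CPM or more, with a median of 0.05. Without wild-type 3 the fold change was above 0 for 20 of the same 44 members, with a median of −0.01. Then 13 members changed from higher to lower and 1, Cyp2u1, from lower to higher. Knockout and wild-type values did not overlap for 4 members, Cyp2b9, Cyp2b13 and Cyp3a59 with all knockout mice higher and Cyp2j9 with all lower, where 18.2% of all tested genes did not overlap (8.81% with the knockouts higher, 9.42% lower). Without wild-type 3, 7 members had an unadjusted p under 0.05 (11.7% of all genes tested then). Genotypes then did not overlap for 9 members (29.3% of all tested genes; 14.6% higher, 14.7% lower), with Cyp2b9, Cyp2b10, Cyp2b13, Cyp2d9, Cyp3a11, Cyp3a13 and Cyp3a59 higher and Cyp1a1 and Cyp2j9 lower in the knockout. Spread within a genotype was larger in the wild-type group for 38 of 44 members, with a median coefficient of variation of 52.5% in wild-type and 19.8% in knockout livers; over all tested genes these medians were 18.3% and 12.8%, and the wild-type value was the larger for 67.1% of genes. Without wild-type 3 it was the larger for 26 of 44 members (59.1%, against 54.1% of all tested genes), with a wild-type median of 25.3%.

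**Figure D3:**
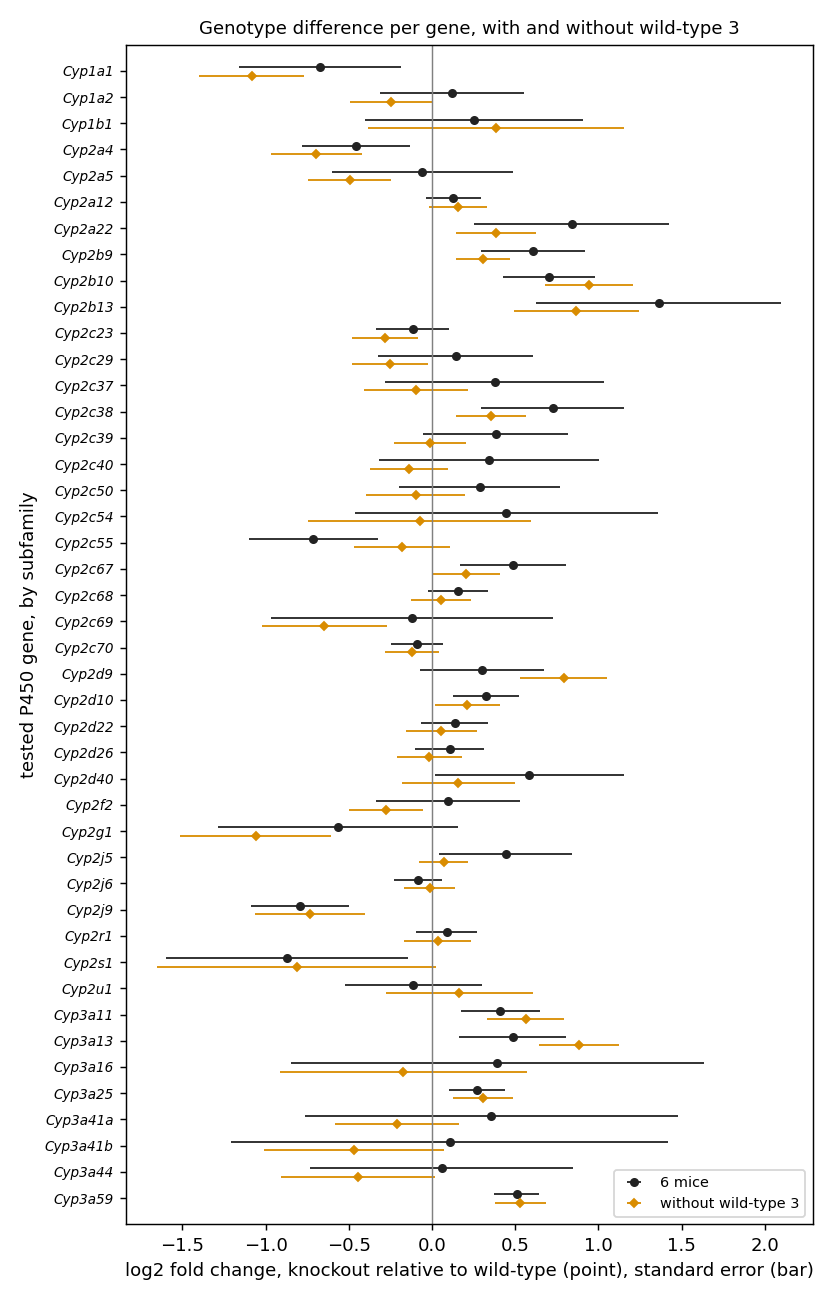
Log2 fold change of each tested member, knockout relative to wild-type, with its standard error, over 6 mice (black circles) and without wild-type 3 (orange diamonds). The tested members of subfamily 2b and Cyp3a11, Cyp3a13, Cyp3a25 and Cyp3a59 lie right of 0 in both fits. Of 13 tested 2c members, 9 lie right of 0 with 6 mice and 3 when wild-type 3 is left out.

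Summed over all 60 members the level was 19855, 27436 and 11740 CPM in wild-type mice 1, 2 and 3 and 22140, 19941 and 23112 CPM in the knockouts. The knockout livers thus lay inside the range of the wild-type livers (19677 ± 7849 against 21731 ± 1624 CPM, SD, n = 3 each). The ratio of the knockout to the wild-type mean was 1.10, and 0.919 without wild-type 3. Leaving out 1 mouse at a time moved the log2 ratio of the means between −0.12 (without wild-type 3) and 0.47 (without wild-type 2). Fewer hepatocytes and less RNA per hepatocyte cannot be told apart in whole liver. The summed levels of subfamilies 2b and 3a were higher in each knockout than in any wild-type mouse, and those of 1a, 2a, 2c, 2d and 2j overlapped. Among single tested genes 18.2% did not overlap between genotypes, 8.81% with the knockouts higher. The sums were not tested.

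**Figure D4:**
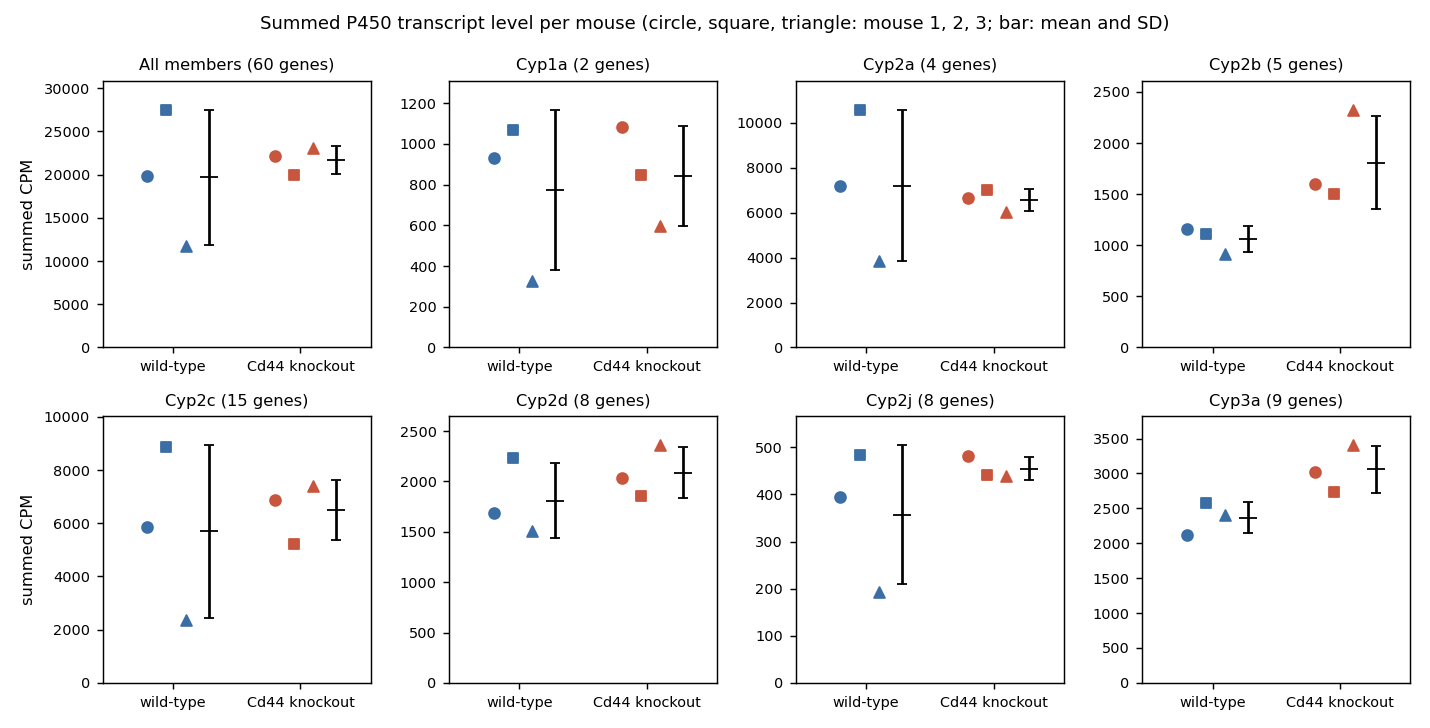
Summed CPM of all members and of 7 subfamilies in each mouse, wild-type in blue and Cd44 knockout in red, with circle, square and triangle for mice 1, 2 and 3 and the mean with SD as a bar. The knockout mice lie above the wild-type mice in Cyp2b and Cyp3a and overlap them in the other panels, and wild-type 3 is the lowest point in the panels of all members and of 1a, 2a, 2b, 2c, 2d and 2j.

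Subfamily 2b, the phenobarbital-inducible enzymes of drug and testosterone oxidation on chromosome 7, was higher in every knockout than in any wild-type liver when its genes were summed. The 5 genes summed to 1161, 1109.8 and 915 CPM in the wild-type and 1599.7, 1498 and 2328 CPM in the knockout livers, a ratio of the means of 1.70 (1062 ± 130 and 1808 ± 453 CPM). Without wild-type 3 the ratio was 1.59. All 3 tested members, Cyp2b9, Cyp2b10 and Cyp2b13, had higher means in the knockout with 6 mice and with 5, and none passed the adjusted threshold. Their upstream sequence is shown because Cyp2b9 and Cyp2b13 put the 6 mice in the same order, from wild-type 3 up to knockout 3, and Cyp2b10 did not. The runs end at the start site in RefSeq (GRCm38.p6) or, where the gene model of the counting build begins earlier, as for Cyp2b10, just before that model, and capitals mark the nuclear receptor hexamer AGGTCA:
Cyp2b9, chr7:26173259-26173408, plus strand: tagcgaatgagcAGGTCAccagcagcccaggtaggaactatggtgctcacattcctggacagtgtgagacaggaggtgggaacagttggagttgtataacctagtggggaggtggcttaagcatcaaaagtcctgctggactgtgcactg
Cyp2b13, chr7:26061345-26061494, plus strand: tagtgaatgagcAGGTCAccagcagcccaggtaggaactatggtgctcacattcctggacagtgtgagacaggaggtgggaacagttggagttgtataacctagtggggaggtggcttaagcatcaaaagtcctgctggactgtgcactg
Cyp2b10, chr7:25897508-25897619, plus strand: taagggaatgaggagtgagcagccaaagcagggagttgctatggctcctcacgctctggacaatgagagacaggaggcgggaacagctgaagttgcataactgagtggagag
Over the 250 bases before the start Cyp2b9 and Cyp2b13 were 99.2% identical, and Cyp2b10 was 71.6% identical to either. AGGTCA also lay in this window before Cyp2b19 and Cyp2b23, which had at most 2 counts in any library. Its part in the levels was not tested.

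Cyp2b10, the standard readout of the constitutive androstane receptor (ENSMUSG00000030483; chromosome 7, 25897620 to 25926624), was read at 512, 354 and 667 CPM in wild-type mice 1 to 3 and at 779, 636 and 1079 CPM in the knockouts. The lowest knockout lay below the highest wild-type mouse, which was wild-type 3. The log2 fold change was 0.70 ± 0.28 (edgeR quasi-likelihood adjusted p = 0.353), and without wild-type 3 it was 0.94 ± 0.26 (adjusted p = 0.264). Cyp2b9, a female-predominant steroid hydroxylase (ENSMUSG00000040660; chromosome 7, 26173411 to 26210661), stood at 480, 557 and 224 CPM in wild-type and 592, 609 and 723 CPM in the knockout mice. All knockouts were above all wild-types, narrowly so for wild-type 2 (log2 fold change 0.61 ± 0.31, adjusted p = 0.473; 0.31 ± 0.16 without wild-type 3). Cyp2b13, its near copy upstream (ENSMUSG00000040583; chromosome 7, 26061497 to 26096197), was read at 169, 199 and 24.2 CPM against 228, 254 and 526 CPM. Wild-type 3 was low and knockout 3 high, the other 4 mice lay close to each other, and the log2 fold change of 1.36 ± 0.74 (adjusted p = 0.513) became 0.87 ± 0.38 (adjusted p = 0.442) without wild-type 3. Cyp2b9 and Cyp2b13 together gave 551 ± 268 CPM in wild-type and 977 ± 236 CPM in the knockout mice, a ratio of 1.77 that was 1.39 without wild-type 3. Cyp2b19 had at most 2 counts in any library and Cyp2b23 had 0 counts in all of them.

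Subfamily 3a, which oxidises a wide range of drugs, bile acids and steroids, lies on chromosome 5 and splits into genes that were low in wild-type 3 and genes that were not. Its 9 members summed to 2124, 2571 and 2403 CPM in wild-type mice and 3026, 2739.6 and 3409 CPM in knockout livers, a ratio of the means of 1.29 that was 1.303 without wild-type 3. All 8 tested members had a higher mean in the knockout over 6 mice, and 4 of the 8 without wild-type 3. None passed the adjusted threshold. Cyp3a11, the main pregnane X receptor target of mouse liver (ENSMUSG00000056035; chromosome 5, 145854426 to 145879964), was read at 1171, 1178 and 1566 CPM in wild-type and 1556, 1384 and 2264 CPM in the knockout mice. Wild-type 3 was here the highest wild-type mouse and overlapped the knockouts (log2 fold change 0.41 ± 0.24, adjusted p = 0.526; 0.56 ± 0.23, adjusted p = 0.404 without it). Cyp3a59 (ENSMUSG00000061292; chromosome 5, 146079257 to 146113287), of which 30% of the words are shared, mostly with Cyp3a25, stood at 57.8, 68.2 and 65.7 CPM against 84.7, 83.2 and 105 CPM. The groups did not overlap and the spread within each was small (log2 fold change 0.51 ± 0.13, edgeR quasi-likelihood adjusted p = 0.222; DESeq2 adjusted p = 0.0821; 0.53 ± 0.15 without wild-type 3). Cyp3a25 was read at 340, 472 and 436 CPM in wild-type and 533, 448 and 524 CPM in the knockout mice, overlapping (log2 fold change 0.27 ± 0.17, adjusted p = 0.564). The sum of Cyp3a25 and Cyp3a59 was 398, 541 and 501 CPM against 618, 532 and 629 CPM, and it overlapped between genotypes.

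The female-predominant genes Cyp3a41a, Cyp3a41b, Cyp3a44 and Cyp3a16, known also from the fetal liver in the case of Cyp3a16, had another pattern. They were chosen for description after their values were seen. Cyp3a41a was read at 146, 261 and 5.30 CPM in wild-type and 164, 249 and 115 CPM in the knockout mice, and Cyp3a41a and Cyp3a41b together at 272, 496 and 7.49 CPM against 324, 423 and 171 CPM. Wild-type 3 was thus nearly without these transcripts while the other 5 mice overlapped between genotypes. Cyp3a16 had 1.58 CPM in wild-type mouse 3 and 18.6 to 106 CPM in the others, and Cyp3a44 10.4 CPM against 31.7 to 113 CPM. Knockout 3 was the next lowest mouse for all 4 genes. Their log2 fold changes over 6 mice, 0.06 to 0.39 with standard errors of 0.79 to 1.31, became −0.47 to −0.17 without wild-type 3. In Cyp3a13, which lies apart from the cluster and shares no word with another gene, wild-type 3 was instead high, at 316 CPM beside 165 and 158 CPM in wild-type 1 and 2 and 387, 213 and 295 CPM in the knockouts. Its log2 fold change was 0.48 ± 0.32 with 6 mice and 0.88 ± 0.24 without wild-type 3 (adjusted p = 0.595 and 0.264).

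The upstream sequence of Cyp3a41a, Cyp3a44 and Cyp3a11 is shown because Cyp3a41a and Cyp3a44 were lowest in wild-type 3 and their relative Cyp3a11 was not. Capitals mark CAAAGTCCA, a known binding element of HNF4, the hepatocyte nuclear receptor Hnf4a. For Cyp3a11 only 30 bases around it are given, since the gene model begins upstream of it:
Cyp3a41a, chr5:145720137-145720286, minus strand: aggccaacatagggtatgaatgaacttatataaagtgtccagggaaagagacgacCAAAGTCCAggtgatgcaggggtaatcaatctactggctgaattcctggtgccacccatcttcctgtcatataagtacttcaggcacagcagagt
Cyp3a44, chr5:145805875-145806024, minus strand: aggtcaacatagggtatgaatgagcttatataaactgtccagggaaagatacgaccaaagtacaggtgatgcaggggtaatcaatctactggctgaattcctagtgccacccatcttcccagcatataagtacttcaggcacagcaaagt
Cyp3a11, chr5:145879944-145879973, minus strand: aagagagtacCAAAGTCCAgtgatgcaaag
The element began 95 bases before the start of Cyp3a41a and 109 before that of Cyp3a11, and Cyp3a44 had no match in 250 bases although it was 94.4% identical to Cyp3a41a. Cyp3a11 and Cyp3a41a were 74% identical over this window. Only exact matches were searched, and Cyp3a44 reads caaagtaca where Cyp3a41a has the element. The part of the element in the levels, in wild-type 3 or elsewhere, was not tested.

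Subfamily 2c, 15 genes on chromosome 19 whose products turn arachidonic acid into epoxides and hydroxy acids, had more genes that were lowest in wild-type 3 than any other subfamily. The sum was 5859, 8859 and 2373 CPM in wild-type and 6863, 5226 and 7383 CPM in the knockout mice, so that wild-type mice 2 and 3 marked the highest and the lowest value of all 6. The ratio of the knockout to the wild-type mean was 1.14, and 0.882 without wild-type 3. On the log2 scale this ratio was 0.19 with 6 mice, −0.18 without wild-type 3 and 0.67 without wild-type 2. Of 13 tested members 10 were lowest in wild-type 3, 9 had a positive fold change over 6 mice and 3 without that mouse, and none passed the threshold. Cyp2c29 (ENSMUSG00000003053; chromosome 19, 39269405 to 39330713) was read at 2936, 4411 and 1012 CPM against 3156, 2645 and 3429 CPM (log2 fold change 0.14 ± 0.47; −0.26 ± 0.23 without wild-type 3). Cyp2c37, an arachidonate hydroxylase, had 665, 1292 and 157 CPM against 870, 716 and 1161 CPM (0.38 ± 0.66; −0.10 ± 0.31 without wild-type 3). In both genes all knockout mice lay above wild-type 3 and below wild-type 2. For Cyp2c37 wild-type 1, at 665 CPM, also lay below every knockout. Cyp2c38, a female-predominant arachidonate epoxygenase, had 104, 153 and 41.4 CPM against 153, 142 and 199 CPM and kept a positive difference without wild-type 3 (0.72 ± 0.43 and 0.35 ± 0.21, adjusted p = 0.545 and 0.558).

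Other 2c genes went their own way. Cyp2c55, an enzyme made mainly in the gut and inducible in liver, was the only tested 2c member that was highest in wild-type 3, with 4.35, 3.13 and 8.71 CPM in wild-type mice and 2.66, 3.76 and 3.50 CPM in knockout livers. Its log2 fold change of −0.71 ± 0.39 (adjusted p = 0.501) was −0.18 ± 0.29 without wild-type 3. Cyp2c70, which makes the muricholic acids of mouse bile, was steady at 457, 554 and 472 CPM against 486, 408 and 500 CPM, with a fold change of −0.09 ± 0.15. Cyp2c69, chosen after its values were seen, was read at 189, 491 and 28.1 CPM against 249, 207 and 194 CPM, the widest range of a 2c member over all 6 mice (17.5 times between the lowest and the highest). That range rests on wild-type 3, and the single value is uncertain because Cyp2c40, Cyp2c67, Cyp2c68 and Cyp2c69 share many words. Together these 4 genes had 579, 1075 and 309 CPM against 782, 641 and 719 CPM, with all knockouts between the lowest and the highest wild-type mouse. The ratio of the means of this sum was 1.09, and 0.863 without wild-type 3. Cyp2c23 and Cyp2c68 varied less than 2 times between mice, and Cyp2c39, Cyp2c40, Cyp2c50, Cyp2c54 and Cyp2c67 were all lowest in wild-type 3. Cyp2c69 and Cyp2c70 are printed as the extremes of the subfamily in their spread over all 6 mice, with the same element in capitals and the bases inside the gene model left out:
Cyp2c69, chr19:39886800-39886919, minus strand: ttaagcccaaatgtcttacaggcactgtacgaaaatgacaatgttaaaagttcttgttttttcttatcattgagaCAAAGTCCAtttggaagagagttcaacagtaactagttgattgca
Cyp2c70, chr19:40187334-40187436, minus strand: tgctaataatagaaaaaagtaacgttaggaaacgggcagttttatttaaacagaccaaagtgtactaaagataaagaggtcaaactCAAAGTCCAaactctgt
Both carried the element, at 75 and at 64 bases before the start. Its part in the range over these mice was not tested.

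Subfamily 2a had the highest summed level as a mean of the 6 mice, with the genotypes overlapping. The 4 genes, on chromosome 7, summed to 7187, 10587 and 3840 CPM in wild-type mice and 6650, 6990.0 and 6039 CPM in knockout livers, a ratio of the means of 0.91 that was 0.738 without wild-type 3. On the log2 scale this ratio was −0.14 with 6 mice, −0.44 without wild-type 3 and 0.26 without wild-type 2. Cyp2a5, the coumarin 7-hydroxylase (ENSMUSG00000005547; chromosome 7, 26835305 to 26843548), was read at 3291, 5158 and 904 CPM against 3607, 2767 and 2615 CPM (log2 fold change −0.06 ± 0.54; −0.50 ± 0.25, adjusted p = 0.482, without wild-type 3). Cyp2a4, the steroid 15-alpha-hydroxylase (ENSMUSG00000074254; chromosome 7, 26307169 to 26315088), had 2570.1, 4215 and 1842 CPM against 1843, 2687 and 1754 CPM (−0.46 ± 0.33, adjusted p = 0.626; −0.70 ± 0.27, adjusted p = 0.384 without wild-type 3). Since 36.1% of the words of Cyp2a4 are shared with Cyp2a5, their sum is the firmer value, 5994 ± 3316 CPM in wild-type and 5091 ± 625 CPM in the knockout mice (7617 CPM as the mean of wild-type mice 1 and 2). Cyp2a12, a bile acid hydroxylase, lay between 918 and 1225 CPM in all 6 mice. Cyp2a22 had 54.7 CPM in wild-type mouse 3 and 253 to 445 CPM in the others, and its log2 fold change of 0.84 ± 0.59 was 0.39 ± 0.24 without that mouse.

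In subfamily 2d, which oxidises basic drugs and arachidonate and lies on chromosome 15, all 5 tested genes had a positive fold change, of 0.11 to 0.59, and 4 of 5 without wild-type 3. The sum was 1687, 2229 and 1511 CPM in wild-type and 2035, 1861 and 2363 CPM in the knockout mice, a ratio of the means of 1.15 that was 1.07 without wild-type 3. Cyp2d26 had 818, 1206 and 766 CPM against 957, 956 and 1089.9 CPM (log2 fold change 0.11 ± 0.21; −0.02 ± 0.20 without wild-type 3), and Cyp2d10 593, 638 and 477 CPM against 658, 596 and 884 CPM (0.32 ± 0.20, adjusted p = 0.559). Both overlapped between genotypes. Cyp2d9, the male-predominant testosterone 16-alpha-hydroxylase, was lowest in wild-type 1 (24.3 CPM) and highest in wild-type 3 (70.5 CPM), and its fold change of 0.30 ± 0.37 was larger without the latter (0.79 ± 0.26, adjusted p = 0.320). Cyp2d40 was lowest in wild-type 3 (20.1 CPM against 64.8 to 146 CPM).

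Family 1, the targets of the aryl hydrocarbon receptor, held 1 abundant gene. Cyp1a2, the caffeine and arylamine oxidase of the pericentral hepatocyte (ENSMUSG00000032310; chromosome 9, 57676937 to 57683703), was read at 927, 1066 and 326 CPM in wild-type and 1084, 844 and 594 CPM in the knockout mice, overlapping (log2 fold change 0.12 ± 0.43; −0.24 ± 0.25 without wild-type 3). Its neighbour Cyp1a1, nearly silent without an inducer, had 44, 41 and 14 counts against 17, 25 and 17 (2.39, 2.68 and 0.713 CPM against 1.13, 1.25 and 1.17 CPM). Wild-type mice 1 and 2 were above the knockouts and wild-type 3 below them (−0.68 ± 0.49, adjusted p = 0.630; −1.08 ± 0.31, adjusted p = 0.271 without wild-type 3). Cyp1b1, made mainly outside the hepatocyte, had 11, 75 and 62 counts against 48, 100 and 27, with no order by genotype (0.25 ± 0.65).

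Of subfamily 2j, epoxygenases on chromosome 4, 3 of 8 genes were tested. Cyp2j5, the hepatic form, had 337, 409 and 118 CPM in wild-type mice and 418, 383 and 373 CPM in the knockouts (log2 fold change 0.44 ± 0.40; 0.07 ± 0.15 without wild-type 3). Cyp2j9 (ENSMUSG00000015224; chromosome 4, 96568429 to 96591578), best known from brain, had 78, 39 and 77 counts against 27, 39 and 36, which is 4.24, 2.55 and 3.92 CPM against 1.79, 1.95 and 2.47 CPM. All knockout mice lay below all wild-type mice, by a narrow margin at wild-type 2 (−0.79 ± 0.29, edgeR quasi-likelihood adjusted p = 0.318; −0.73 ± 0.33 without wild-type 3). Cyp2j6 did not vary by more than 1.36 times between mice.

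Single-gene subfamilies gave no called difference. Cyp2f2, the naphthalene oxidase of lung club cells that marks periportal hepatocytes in liver, had 497, 494 and 158 CPM in wild-type mice and 375, 314 and 538 CPM in the knockouts (log2 fold change 0.10 ± 0.43; −0.28 ± 0.22 without wild-type 3). It was therefore low in wild-type 3 although the periportal list, of which it is a member, was high there. Cyp2r1, the vitamin D 25-hydroxylase, was steady at 10.1, 13.2 and 10.2 CPM against 11.6, 13.6 and 10.4 CPM (0.09 ± 0.18). Cyp2g1, an olfactory enzyme, had 76, 158 and 21 counts against 76, 49 and 42 (−0.57 ± 0.72; −1.06 ± 0.46, adjusted p = 0.427, without wild-type 3). Cyp2u1, a long-chain fatty acid hydroxylase, had 23, 55 and 73 counts against 40, 60 and 32 (−0.11 ± 0.41; 0.16 ± 0.44 without wild-type 3). Cyp2s1, an epithelial enzyme, had 8, 36 and 27 counts against 8, 27 and 3, the lowest fold change of a member with a wide error (−0.87 ± 0.73, adjusted p = 0.689).

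The 16 members left out of the test had too few counts. Cyp2b23, Cyp2c66, Cyp2j7, Cyp2j11, Cyp2j12, Cyp2j13 and Cyp2w1 had 0 counts in every liver. Cyp2ab1, Cyp2b19, Cyp2c65, Cyp2d34, Cyp2j8 and Cyp3a57 had at most 4 counts in any library. Cyp2t4 had 1 to 9 counts, Cyp2d12 3 to 13 and Cyp2d11 5 to 22, the last with 8, 6 and 6 counts in wild-type and 14, 5 and 22 in knockout livers.

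What the members share upstream was counted in the 250 bases before the RefSeq start of 52 members and of 27025 mouse genes, on both strands, with overlapping matches counted. None of the letters searched contains another. CAAAGTCCA was found before 10 members (19.2%) and before 0.381% of all promoters, and the 10 were Cyp2c40, Cyp2c65, Cyp2c67, Cyp2c68, Cyp2c69, Cyp2c70, Cyp3a11, Cyp3a16, Cyp3a41a and Cyp3a41b. These genes are copies of few ancestors and are not independent cases. TATAAA was found before 24 members (46.2%; all promoters 13%), including all 4 of subfamily 2a and all 5 of 2d with a window, and none of 2b. AGGTCA was found before 14 (26.9%; 13.8%), GCGTG, the core of the aryl hydrocarbon receptor element, before 9 (17.3%; 28.2%), Cyp1a1 and Cyp1b1 among them, and TTCNNNGAA, the STAT5 element, before 2 (3.85%; 7.18%), Cyp2j11 and Cyp2j12. A match is a run of letters in this window and not a binding site.

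None of the tested regulators of these genes passed the test for genotype. Of 30 listed regulators 28 were tested, 20 had a positive fold change (48.9% of all tested genes), 0 passed the adjusted threshold and 4 had an unadjusted p under 0.05, all higher in the knockout (5.22% of all tested genes). Without wild-type 3 the fold change was positive for 18 of 28 (48.2% of all genes tested then). Ahr was read at 53.2, 47.5 and 50.4 CPM in wild-type mice and 81.6, 59.8 and 70.3 CPM in knockout livers, without overlap (log2 fold change 0.49 ± 0.14, edgeR quasi-likelihood adjusted p = 0.237), while Cyp1a1 and Cyp1a2 overlapped. The others included the estrogen receptor Esr1 (0.49 ± 0.15, adjusted p = 0.257) and Cebpb (0.43 ± 0.15, adjusted p = 0.294). Nr1i3 had 60.2, 81.8 and 30.4 CPM against 67.0, 52.2 and 78.0 CPM (0.19 ± 0.34; −0.11 ± 0.20 without wild-type 3), with the lowest value in wild-type 3, where Cyp2b10 was not low. Nr1i2 had a fold change of 0.33 ± 0.15 and Hnf4a of 0.25 ± 0.17, and both overlapped between genotypes.

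Electron donors and heme supply were measured in 16 genes, all tested, with 9 positive and 7 negative fold changes, 0 at an adjusted p under 0.05 and 0 at an unadjusted p under 0.05 (12.8% of all tested genes). Without wild-type 3, 5 were positive and 11 negative. Por, the reductase that serves all microsomal P450 enzymes, was read at 795, 688 and 1187 CPM in wild-type mice and 1154, 855 and 1263 CPM in the knockouts (log2 fold change 0.29 ± 0.25; 0.56 ± 0.20, adjusted p = 0.348, without wild-type 3). Wild-type 3 was thus high in Por where most P450 genes were low. Cyb5r3, the cytochrome b5 reductase, had 462, 480 and 392 CPM against 382, 365 and 378 CPM, the knockouts below all wild-types (−0.25 ± 0.14, adjusted p = 0.520). Alas1, the rate-limiting enzyme of heme synthesis, had 301, 544 and 453 CPM against 484, 283 and 460 CPM (−0.08 ± 0.27). Cyp2e1, the ethanol-oxidising P450 that the rule leaves out, had 1622, 4171 and 1278 CPM against 2711, 2228 and 3654 CPM (0.28 ± 0.45; −0.02 ± 0.40 without wild-type 3), with wild-type 2 highest and wild-type 3 lowest as in subfamilies 2a and 2c.

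Macrophage markers had lower means in the knockout, while the sums of hepatocyte markers overlapped. All 9 Kupffer cell markers and all 9 markers of monocytes and infiltrating macrophages had lower means in the knockout (summed 317 to 919 and 148 to 308 CPM in wild-type mice, 286 to 307 and 78.0 to 112 CPM in knockout livers; 0 of 18 at an adjusted p under 0.05 in edgeR, where 0.0141% of all tested genes passed, and 8 of 18 in DESeq2, where 2.03% did). An unadjusted p under 0.05 in edgeR was reached by 14 of 18, against 7.59% of all tested genes with a lower level in the knockout. All 18 also had a negative fold change without wild-type 3. The hepatocyte markers, 6 of 7 with a higher mean in the knockout, had a sum between 94895 and 111891 CPM in wild-type mice and between 103386 and 128571 CPM in knockouts. The pericentral markers, Cyp2e1 included, had 7 of 10 higher means (5 of 10 without wild-type 3) and sums between 2330 and 7200 CPM in wild-type mice and between 4340 and 6146 CPM in knockouts. Their part in the P450 values was not tested.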

How the data were processed

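Liver poly(A) RNA of 6 mice was sequenced, and the authors deposited raw read counts for each Ensembl gene, 1 column per mouse, not normalised. HISAT2 2.0.5, StringTie 1.3.3b, featureCounts 1.5.0-p3 and GRCm38.p6 are named in the submitters' processing notes; the strand setting, and how reads that map to several genes were counted, are not stated. Groups came from the genotype label. Of 54682 rows, 54495 matched the GENCODE annotation of that build, and 150 gene models without a name (0.273% to 0.509% of counts) were left out.

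Genes were filtered with filterByExpr, scaled by TMM and tested for genotype with edgeR 4.0.16 (R 4.3.3; robust quasi-likelihood, Benjamini-Hochberg over 14145 genes, threshold 0.05; biological coefficient of variation 0.237), after the code was tested on simulated data. The standard error is the fold change over the square root of F. A permutation of single values between 3 and 3 mice has 0.1 as its smallest exact p. DESeq2 1.42.0, limma 3.58.1 voom, other normalisations and filters, a replicate block and leaving out each mouse were alternatives. RPKM used merged exon length. Shared words were 50 bases, and 3 counts were the limit that 0 counts allow, for counting error only.

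Members and lists were chosen with earlier results of these data known. Named were the 2 highest members of subfamilies 1a, 2a, 2b, 2c, 2d and 3a, the highest of the others at 1 CPM or more, the 10 smallest p, members past the threshold in edgeR or DESeq2 (0), members with 1 mouse over 3 times above the next (0), Cd44, and up to 4 genes by smallest p of each further list with Por, Nr1i2, Nr1i3, Ahr, Hnf4a and Cyp2e1. Others named with values, such as Cyp2a22, Cyp2c69, Cyp2c70, Cyp2d9, Cyp2d40, Cyp3a13 and Cyp3a41a, were chosen after their values were seen. Some genes of the further lists are not reported here.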

Additional observations from a re-analysis of the deposited data

How the results depend on the processing

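No member passed the adjusted threshold under any setting run. The number of genes called among all those tested was 2 as reported, 3 with upper-quartile scaling, 6 without a low-count filter, 1 with the older quasi-likelihood fit, 287 with DESeq2, 0 with limma-voom, and 0 to 151 when 1 mouse was left out (the 151 without wild-type 2, and 0 without knockout 2 or 3). The mouse numbers did not pair the samples (correlations of same-numbered mice −0.04, −0.06 and −0.003), and with the mouse number as a replicate block 1 gene was called. Of the named members 2 changed sign with the block, Cyp2a5 (0.25) and Cyp2c69 (0.60), and 3 with limma-voom, Cyp2a5 (0.24), Cyp2c69 (0.61) and Cyp2u1 (0.050); the cause was not tested.

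With 1 mouse left out at a time, the log2 fold change changed sign for Cyp1a2 (−0.24 to 0.43), Cyp1b1 (−0.24 to 0.85), Cyp2a5 (−0.50 to 0.52), Cyp2c29 (−0.26 to 0.65), Cyp2c37 (−0.10 to 1.17), Cyp2c40 (−0.14 to 1.01), Cyp2c54 (−0.073 to 0.99), Cyp2c69 (−0.65 to 1.01), Cyp2d26 (−0.016 to 0.35), Cyp2f2 (−0.28 to 0.33), Cyp2g1 (−1.06 to 0.42), Cyp2r1 (−0.022 to 0.23), Cyp2u1 (−0.47 to 0.16), Cyp3a16 (−0.31 to 1.21), Cyp3a41a (−0.21 to 1.23), Cyp3a41b (−0.47 to 1.03) and Cyp3a44 (−0.44 to 0.78). It stayed positive for Cyp2b10 (0.48 to 0.94), Cyp2b9 (0.31 to 0.87), Cyp2b13 (0.87 to 1.81), Cyp3a59 (0.40 to 0.57) and Cyp3a11 (0.18 to 0.56). The same held for Cyp2a22 (0.39 to 1.18), Cyp2c38 (0.35 to 1.19), Cyp2d10 (0.15 to 0.44), Cyp2j5 (0.070 to 0.79) and Cyp3a25 (0.15 to 0.38). It stayed negative for Cyp2j9 (−0.97 to −0.65), Cyp1a1 (−1.08 to −0.37), Cyp2a4 (−0.70 to −0.066), Cyp2c55 (−0.97 to −0.18) and Cyp2s1 (−1.86 to −0.29). The summed level of subfamily 2b kept a log2 ratio of 0.55 to 0.89 and that of 3a of 0.29 to 0.44. Members with a positive fold change numbered 21 (without wild-type 3) to 38 (without wild-type 2), and members at an unadjusted p under 0.05 numbered 1 to 7. Library totals alone moved the share of positive fold changes over all genes from 48.9% to 38.9% and left that of the members at 32 of 44. Genes with under 100 counts in a library, such as Cyp1a1, Cyp2j9 and Cyp2s1, carry the widest counting error.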

Other observations

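P450 enzymes of families 4 and above, which handle fatty acids, sterols and bile acids, were counted as a list of 38 genes, of which 23 were tested. Fold changes were positive for 10 and negative for 13, with a median of −0.04 on the log2 scale, and 0 passed an adjusted p of 0.05 in edgeR or DESeq2. An unadjusted p under 0.05 was reached by Cyp17a1, a steroid 17-hydroxylase that mouse liver makes mainly in females, and by Cyp4f18, a leukotriene hydroxylase of myeloid cells. Over all tested genes 12.8% reached it in edgeR, and 18.2% did not overlap between genotypes. Cyp17a1 was read at 276, 281 and 142 CPM in wild-type and 417, 298 and 385 CPM in knockout livers (0.65 ± 0.27, edgeR quasi-likelihood adjusted p = 0.373; 0.39 ± 0.17, adjusted p = 0.427, without wild-type 3), without overlap. Cyp4f18 had 2.45, 2.28 and 5.71 CPM against 2.12, 1.65 and 0.617 CPM (−1.24 ± 0.51, adjusted p = 0.369; −0.67 ± 0.44 without wild-type 3). Cyp4a31, an omega-hydroxylase, had 53.3 CPM in wild-type mouse 3, where the other 5 livers had 4.78 to 6.58 CPM.

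Genes of the list of female-predominant P450 enzymes, 12 of them members described above, had a positive fold change in 11 of 13, with a median of 0.38, where 48.9% of all tested genes were positive. Without wild-type 3 it was positive in 5 of 13, with a median of −0.14, where 48.2% of all genes tested then were positive, and 0 passed the adjusted threshold in either fit. The 5 were Cyp2b9, Cyp2b10, Cyp2b13, Cyp2c38 and Cyp17a1. Of 7 listed sex-biased genes outside the P450 family 6 were tested, with 3 positive and 3 negative fold changes (4 and 2 without wild-type 3). Sult2a1, a female-predominant sulfotransferase of bile acids and steroids, had 211, 223 and 75.4 CPM in wild-type and 247, 268 and 319 CPM in knockout livers, without overlap (0.71 ± 0.38, adjusted p = 0.497; 0.36 ± 0.15, adjusted p = 0.412, without wild-type 3). It was lowest in wild-type 3, as were Cyp3a41a, Cyp3a41b and Cyp3a44. Nr0b2, the bile acid responsive repressor, had 13.1 CPM in wild-type mouse 3, where the other 5 livers had 3.198 to 5.06 CPM.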
